A study of Zea mays with 33 samples.

Results

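Late filling maize seed was compared with roots and hypocotyls of 4-day seedlings, which sets the seed before germination against the plant just after it. The comparison used 9 of the 33 mRNA-seq libraries of the study: 3 of seed at 35 days after pollination (35 DAP), 3 of roots and 3 of hypocotyls at 4 days after sowing. A gene was kept when its log2 fold change in the seed, against the mean of both seedling organs, had the same sign against the root alone and against the hypocotyl alone. Of 46430 features in the count tables, 28997 had enough reads to be tested, and 22841 of these met the sign rule. A kept gene was called when its Benjamini–Hochberg adjusted p-value in edgeR's quasi-likelihood test was below 0.05 and its fold change exceeded 4, a log2 fold change beyond 2.

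All plants were wild type of the inbred line B73 and listed as untreated, and every sample title carries the code WW, which the labels do not spell out. The 35 DAP libraries came from whole seeds, which hold embryo, endosperm and the maternal pericarp together, and each was a pool of seeds from 1 field-grown ear. The roots and hypocotyls came from seedlings on perlite in a greenhouse without direct light, with 3 plants pooled per library. The 35 DAP seeds also had an RNA extraction of their own, so that growth site, extraction and organ cannot be told apart in this comparison. The count tables carry gene model identifiers without names, so the tissue labels were not checked against marker genes here.

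In the second part of seed filling, the maize endosperm deposits starch and storage proteins while the embryo accumulates oil and prepares for drying. Storage protein genes of cereals are transcribed at very high levels and often lie in clusters of similar copies. After germination these reserves are broken down, and roots and hypocotyls grow by division, elongation and wall synthesis.

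Reads on genes numbered 26.9, 26.5 and 15.8 M in the 35 DAP seed libraries, and 27.4 to 42.9 M in the 6 seedling libraries. Between 27789 and 28801 features had at least 1 read in a seed library, against 29444 to 30253 in a seedling library. Levels below are CPM, read counts per M reads, after TMM scaling, and differences are log2 fold changes from the fit. TMM scales libraries on the bulk of genes, so the summed CPM of all tested genes came to 1157000 in the seed, 752300 in the root and 751400 in the hypocotyl. The median log2 fold change over all genes tested was −0.15. In whole tissue, a lower level can reflect fewer cells of a type or less RNA per cell, and these cannot be told apart.

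The seed libraries drew their reads from far fewer genes than the seedling libraries. The 10 most abundant genes held 25.4%, 22.7% and 22.4% of the gene reads in the 3 seed libraries, against 3.05% to 3.89% in the 6 seedling libraries. The 50 most abundant held 37.9% to 42.3% in the seed and 7.98% to 9.44% in the seedling organs. The number of genes that together held 50% of the reads was 196, 302 and 308 in the seed libraries, against 1859 to 2032 in the seedling libraries. The ranges of seed and seedling libraries were far apart for each of these measures.

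**Figure D1:**
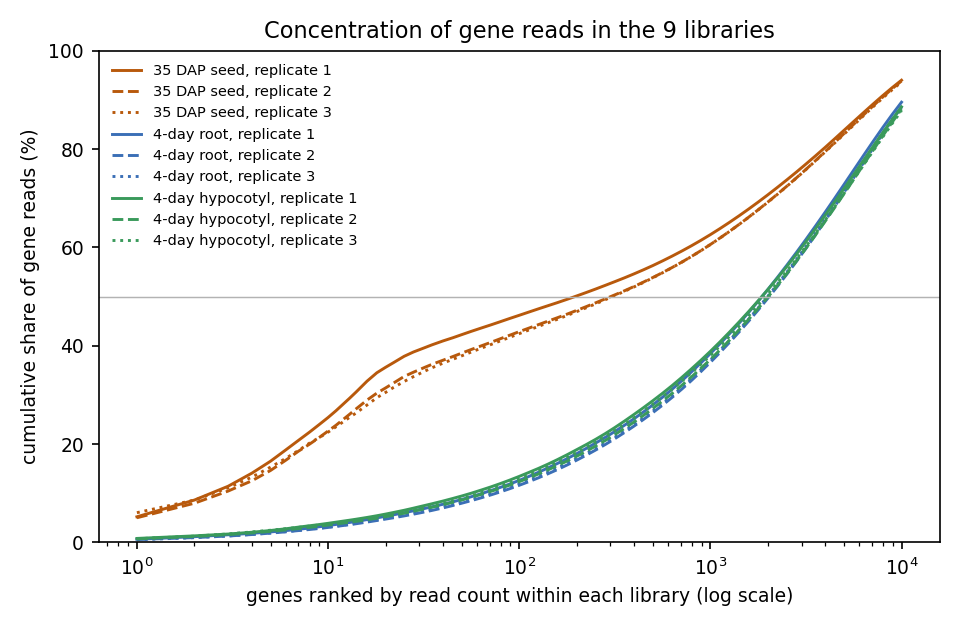
Cumulative share of gene reads (y axis, %) against genes ranked by read count within each library (x axis, log scale), with 1 line per library of 35 DAP seed, 4-day root and 4-day hypocotyl. The seed lines reach 50% after 196 to 308 genes, and the seedling lines after 1859 to 2032 genes.

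The genes that filled the seed libraries took a small share of the seedling reads. The 50 genes with the highest mean level in 35 DAP seed took 42.2%, 38.5% and 37.9% of the reads there, and 1.07% to 1.22% in the root and hypocotyl libraries. Of these 50 genes, 45 were called higher in the seed and 14 had no read in any seedling library. The 10 highest ranged from 15190 to 62750 CPM in the seed, all were called higher, and 6 of them had no seedling read. The 5 highest summed to 176600 CPM in the seed and 0.1844 CPM in the mean of the seedling organs. No comparable concentration was found on the seedling side, where the 5 highest genes ranged from 2263 to 4214 CPM in the root and from 2493 to 5744 CPM in the hypocotyl.

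The most abundant feature of the late seed, Zm00001d020592, has no function in the annotation used here. It had 62549, 57280 and 68418 CPM in the seed libraries, against 0.0907, 0.189 and 0.281 CPM in the root and 0.0467, 0 and 0 CPM in the hypocotyl. The log2 fold change was 20.01 (SE 0.76, edgeR adjusted p = 1.55e-15), and the level in the younger seed, labelled 12 DAP, averaged 1952 CPM. The study's methods give another age for the younger seed than its label, so its age is uncertain, and the label is used here. Every seed library was thus above every seedling library by several orders of magnitude.

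The second most abundant feature, Zm00001d019155, also unannotated, had 40880, 33743 and 29013 CPM in the 35 DAP seed and no read in any of the 6 seedling libraries. With a floor of 3 reads over the seedling libraries, its level was at least 3050000-fold higher in the seed. A neighbouring feature, next to it in the order of the count table, took 1048573, 884076 and 435190 reads from the strand opposite to its own in the 3 seed libraries. In the tables counted without regard to strand, Zm00001d019155 kept 353719, 314322 and 174067 reads in the seed, against 916873, 782753 and 406348 on its own strand. The size of its level in the seed therefore depends on the strand that was counted, while it had 1 read in the seedling libraries without strand.

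Only 1 of the 10 most abundant seed genes carries an annotation in the study, Zm00001d005793, annotated to the nucleus. It had 27360, 23775 and 28051 CPM in the seed, against 0.0809 to 0.154 CPM in the root and 0.0187 to 0.0539 CPM in the hypocotyl. Its log2 fold change of 18.43 (SE 1.1, edgeR adjusted p = 3.51e-10) rested on 1 to 8 reads in each seedling library.

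Across all genes tested, 2513 (8.67%) were called higher in the 35 DAP seed and 4464 (15.4%) were called lower, 1.78 lower calls for each higher call. The remaining 22020 were not called, among them 187 that passed both thresholds but changed sign between the organs. With no minimum fold, 7950 genes (27.4%) were higher and 9945 (34.3%) were lower. Against the root alone, 2980 (10.3%) were higher and 4817 (16.6%) lower in the seed. Against the hypocotyl alone, 2661 (9.18%) were higher and 4993 (17.2%) lower. Both of these comparisons use the same seed libraries and are not independent of each other.

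All 3 seed libraries lay above all 6 seedling libraries in 2335 (92.9%) of the higher genes, where 24.2% of all genes tested showed this order. They lay below in 3939 (88.2%) of the lower genes, where 29.9% of all genes tested did, an order that the call itself favours.

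The genes higher in the seed had the wider range of levels. Of these, 55 averaged 1000 CPM or more in the seed, whereas 6 of the lower genes did so in the seedling organs. The median level was alike, at 5.3 CPM in the seed for the higher genes and 5.29 CPM in the seedling organs for the lower genes. The median log2 fold change was 4.14 for the higher genes, or 4.03 when genes without seedling reads were set to their bound. It was −3.84 for the lower genes, or −3.54 at the bound. Differences beyond a log2 of 10 were found in 202 higher genes and in 45 lower genes.

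**Figure D2:**
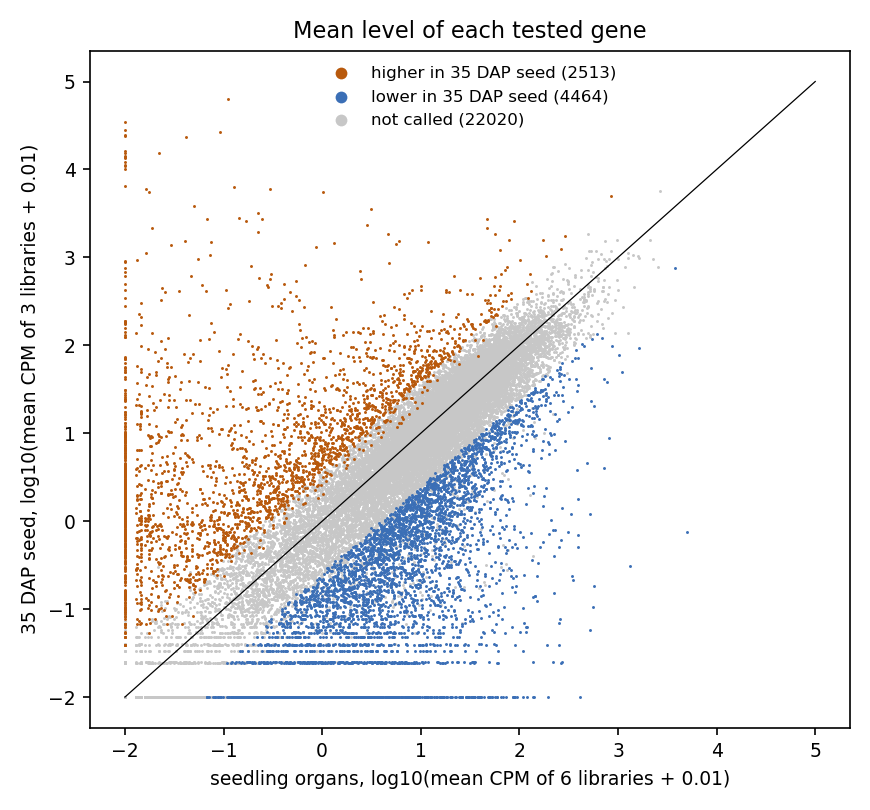
Mean CPM of each tested gene in 35 DAP seed (y axis, 3 libraries) against the mean of the root and hypocotyl libraries (x axis, 6 libraries), both as log10 of the mean CPM plus a small constant, with the line of equal levels. The 2513 genes called higher lie above the line and reach past 10000 CPM in the seed, and the 4464 called lower lie below it.

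Many genes were read on 1 side only. No read was found in the 6 seedling libraries for 367 (14.6%) of the genes called higher in the seed, and none in the 3 seed libraries for 814 (18.2%) of the lower genes. The 3-read floor corresponds to 0.0113 CPM over the 6 seedling libraries and 0.0503 CPM over the 3 seed libraries, so that absence from the seed was measured less deeply. Genes with at least 1000 reads in each seed library and no seedling read numbered 37, and 17 of these had at least 10000 reads in each seed library. In the opposite direction, 6 genes had at least 1000 reads in each seedling library and no seed read, and none had 10000. A gene without reads was not detectable at this depth.

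More of the lower genes were at their higher seedling level in the root than in the hypocotyl. By the test of root against hypocotyl at the same thresholds, 860 (19.3%) of the genes lower in the seed were higher in the root and 476 (10.7%) were higher in the hypocotyl. Over all genes tested, the test called 1975 (6.81%) higher in the root and 2342 (8.08%) higher in the hypocotyl. Among the genes higher in the seed, 243 (9.67%) were higher in the root and 296 (11.8%) were higher in the hypocotyl. The called sets were chosen on these same libraries. Of the lower genes, 717 passed against the root only when each organ was taken alone, and 573 against the hypocotyl only. The call itself can thus raise these shares above those of all genes.

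The called sets were then followed through all 11 tissues of the study. The genes called higher held 47.6% ± 1.88 of the reads in 35 DAP seed (SD, n = 3), against 1.32% ± 0.0306 in the root and 1.3% ± 0.0351 in the hypocotyl (SD, n = 3 each). Their share was 8.89% ± 0.682 in the 12 DAP seed and 7.66% ± 0.546 in the tassel (SD, n = 3 each), the next tissues in order. These values describe the set that the contrast itself selected. The genes called lower held 0.824% ± 0.0591 of the reads in the 35 DAP seed, against 15% ± 0.153 in the root and 14.6% ± 0.757 in the hypocotyl (SD, n = 3 each). Their share was larger still in 3 leaf tissues, with 33.9% ± 1.45 in the leaf of young seedlings (V2 stage), 22.6% ± 1.72 in the leaf at pollen shed and 17.9% ± 0.808 in the immature V2 leaf (SD, n = 3 each). In the 12 DAP seed it was 2.99% ± 0.0379 (SD, n = 3).

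**Figure D3:**
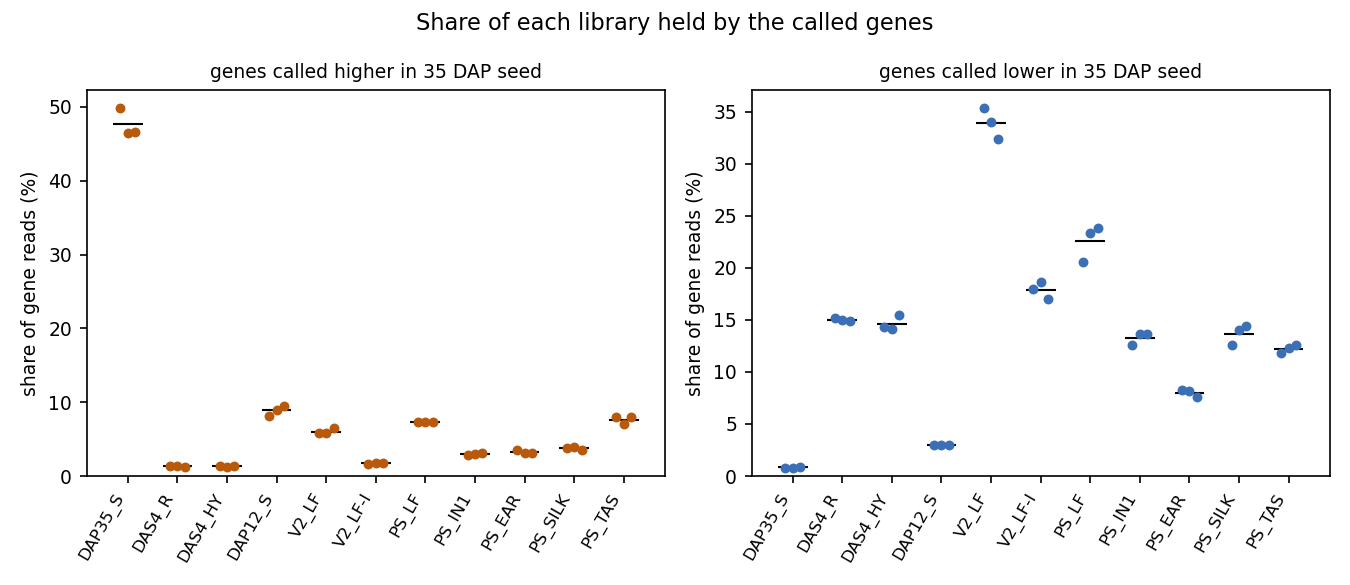
Share of gene reads (y axis, %) held by the genes called higher (left) and lower (right) in 35 DAP seed, for each of 33 libraries by tissue (points), with the tissue mean as a bar (n = 3). Tissue codes are those of the sample titles, with DAP35_S and DAP12_S for seed, DAS4_R and DAS4_HY for root and hypocotyl, V2 for the young seedling and PS for pollen shed. The higher set peaks in 35 DAP seed at 47.6%, and the lower set peaks in V2 leaf at 33.9%.

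Many called genes had their highest mean in a tissue outside the comparison. Of the genes higher in the 35 DAP seed, 1135 (45.2%) had their highest mean of the 11 tissues there. For 496 (19.7%) the tassel was highest and for 317 (12.6%) the 12 DAP seed. Over all genes tested, these shares were 9.34%, 15.6% and 7.62%. Of the lower genes, 1253 (28.1%) were highest in the root, 607 (13.6%) in the V2 leaf and 528 (11.8%) in the hypocotyl, where the shares over all genes tested were 9.11%, 14.6% and 5.24%. The V2 leaf share was thus near that of all genes. No higher gene had its highest mean in a seedling organ and no lower gene in the 35 DAP seed. The call itself favours this, and with it the larger shares of the 35 DAP seed, the root and the hypocotyl. The level in the 12 DAP seed lay above that in the 35 DAP seed for 548 of the 2513 higher genes, and the median of these 2513 was 1.79 CPM at 12 DAP. For the lower genes, the 12 DAP seed was below the seedling organs in 4316 of 4464, with a median of 0.254 CPM at 12 DAP, beside 0.185 CPM in the 35 DAP seed and 5.29 CPM in the seedling organs.

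The strongest seed signal came from groups of neighbouring features. Taking tested features in the order of the count table, 647 (25.7%) of the higher genes had a neighbour called the same way, in 57 runs of at least 3. Among the lower genes 1746 (39.1%) did, in 184 runs of at least 3, and the lower set is the larger of both. Over all genes tested, 8.67% were called higher and 15.4% lower, so some neighbours share a call in any order of genes. The share expected from these rates was not computed, so the counts of runs do not by themselves show clustering. A group of 7 runs, together 26 features and each run with more than 10000 CPM in the seed, held 30.0%, 26.6% and 25.5% of the reads in the 3 seed libraries. In the seedling libraries these 26 features held at most 0.000539% of the reads.

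The largest of these was a run of 6 neighbouring features. It held 10.5%, 9.04% and 7.23% of the reads of the seed libraries, with member means of 6000 to 28190 CPM, against 2 reads in all 6 seedling libraries together. Another run of 7 features held 3.68%, 2.95% and 2.82% of the seed reads, against 0 reads in the seedling libraries, with members from 9.377 to 14140 CPM. Reads that map to several places were not counted, and their share was 3.52% to 3.67% in the seed libraries, against 1.86% to 2.14% in the seedling libraries. If neighbours in a run share sequence, which was not tested, reads common to them are missing from their levels and from the sum over the run.

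Runs on the lower side carried far fewer reads. The longest of them held 13 features, with 37 reads in the 3 seed libraries against 17326 reads in the 6 seedling libraries. Its summed level was 0.5703 CPM in the seed, against 82.75 CPM in the root and 55.88 CPM in the hypocotyl. A run of 5 reached the highest seedling level, with 98.36 CPM in the seed, against 1080 CPM in the root and 2981 CPM in the hypocotyl.

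Among genes with an annotation in the study, 12 higher and 12 lower genes with the largest differences were taken by rule. The annotation covers 1926 of the genes tested, those near the enhancers that the study examined, of which 110 (5.71%) were higher and 237 (12.3%) were lower in the seed. Functions are given as the terms attached to each gene in the study's annotation table. Apart from Zm00001d005793, the 12 higher genes had means of 50.3 to 275 CPM in the 35 DAP seed, and 11 of the 12 were higher there than in any of the other 10 tissues.

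Enzymes and electron carriers were among the steepest. Zm00001d037576, annotated as a copper-binding primary amine oxidase of the peroxisome, an enzyme class that oxidises amines, had 272, 258 and 296 CPM in the seed. It had 2.3, 1.83 and 3.04 CPM in the root and 0.0234, 0.0747 and 0 CPM in the hypocotyl, for a log2 fold change of 9.77 (SE 0.32, edgeR adjusted p = 1.97e-13). This gene was therefore low in the root and nearly unread in the hypocotyl, and its 12 DAP seed mean was already 134 CPM. Zm00001d016505, annotated with electron transfer and anchoring to the plasma membrane, had 120, 134 and 159 CPM in the seed, against 1 read in the 6 seedling libraries. The ratio of its levels was 36400, with a 95% Poisson interval of 6530 to 1440000 that covers counting error only. Zm00001d027258, annotated with oligosaccharyltransferase activity, which attaches sugar chains to proteins, had 106, 112 and 117 CPM in the seed. Its root values of 0.508, 3.5 and 0.102 CPM varied more than its seed values, and the hypocotyl had 0.0539 to 0.373 CPM. Its log2 fold change was 7.73 (SE 0.61, edgeR adjusted p = 4.5e-11).

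Genes annotated with DNA binding or transcription formed another group. Zm00001d033937, annotated with DNA binding and glucose catabolism, had 46.1, 46 and 58.6 CPM in the seed and no seedling read, at least 4440-fold higher in the seed. It was nearly absent from the younger seed too, at 0.621 CPM. Zm00001d028452, annotated with negative regulation of transcription, had 116, 92.3 and 113 CPM in the seed. It had 0.809 to 1.66 CPM in the root and 0.257 to 0.467 CPM in the hypocotyl (log2 7.26, SE 0.34, edgeR adjusted p = 5.37e-14). Both were low in each seedling organ. Zm00001d003648, annotated with nucleic acid binding, had 91.3, 91.3 and 88.5 CPM in the seed, against 0.742 to 2.18 CPM in the root and 13.9 to 18.9 CPM in the hypocotyl (log2 4.18, SE 0.43).

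Other genes carried terms of signalling, translation or the cytoskeleton. Zm00001d042263, annotated as a potassium channel with responses to abscisic acid and chitin, had 163, 166 and 167 CPM in the seed. It had 1.14, 2.51 and 2.81 CPM in the root and 15.8, 14.1 and 14.3 CPM in the hypocotyl, for a log2 fold change of 4.88 (SE 0.18, edgeR adjusted p = 1.79e-17). The seedling organs differed for this gene, with a log2 of −2.79 for root over hypocotyl (edgeR adjusted p = 1.42e-10). Zm00001d038304, annotated as a protein kinase, showed the same order, at 70.1, 72.4 and 70.7 CPM in the seed, against 3.07 to 3.4 CPM in the root and 9.16 to 13.2 CPM in the hypocotyl. Zm00001d027682, annotated as a GTP-dependent translation initiation factor, had 60.9, 77.3 and 74.9 CPM in the seed, against 0.514 to 1.54 CPM in the seedling libraries. It was the exception among the 12 by tissue, with a higher mean of 87.8 CPM in the internode. Zm00001d020938, annotated with embryo development and tubulin complex assembly, had 61, 67.1 and 72.5 CPM in the seed, against 2.97 to 3.83 CPM in the root and 0.561 to 1.21 CPM in the hypocotyl.

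A pair of consecutive identifiers moved in opposite directions. Zm00001d006364, annotated to the nucleus, had 75, 87.8 and 123 CPM in the seed, against 0.336 to 0.895 CPM in the seedling libraries (log2 7.33, SE 0.42, edgeR adjusted p = 1.85e-12). Zm00001d006365, annotated as an adenosylhomocysteinase, the enzyme that recycles the product of methyl transfer, had 1.07, 0.991 and 0.571 CPM in the seed. It had 233, 139 and 122 CPM in the root and 2.45, 5.41 and 23.4 CPM in the hypocotyl, a log2 fold change of −5.51 (SE 0.63, edgeR adjusted p = 4.95e-08). The higher gene was low in both organs, and the lower gene was abundant in the root only.

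**Figure D4:**
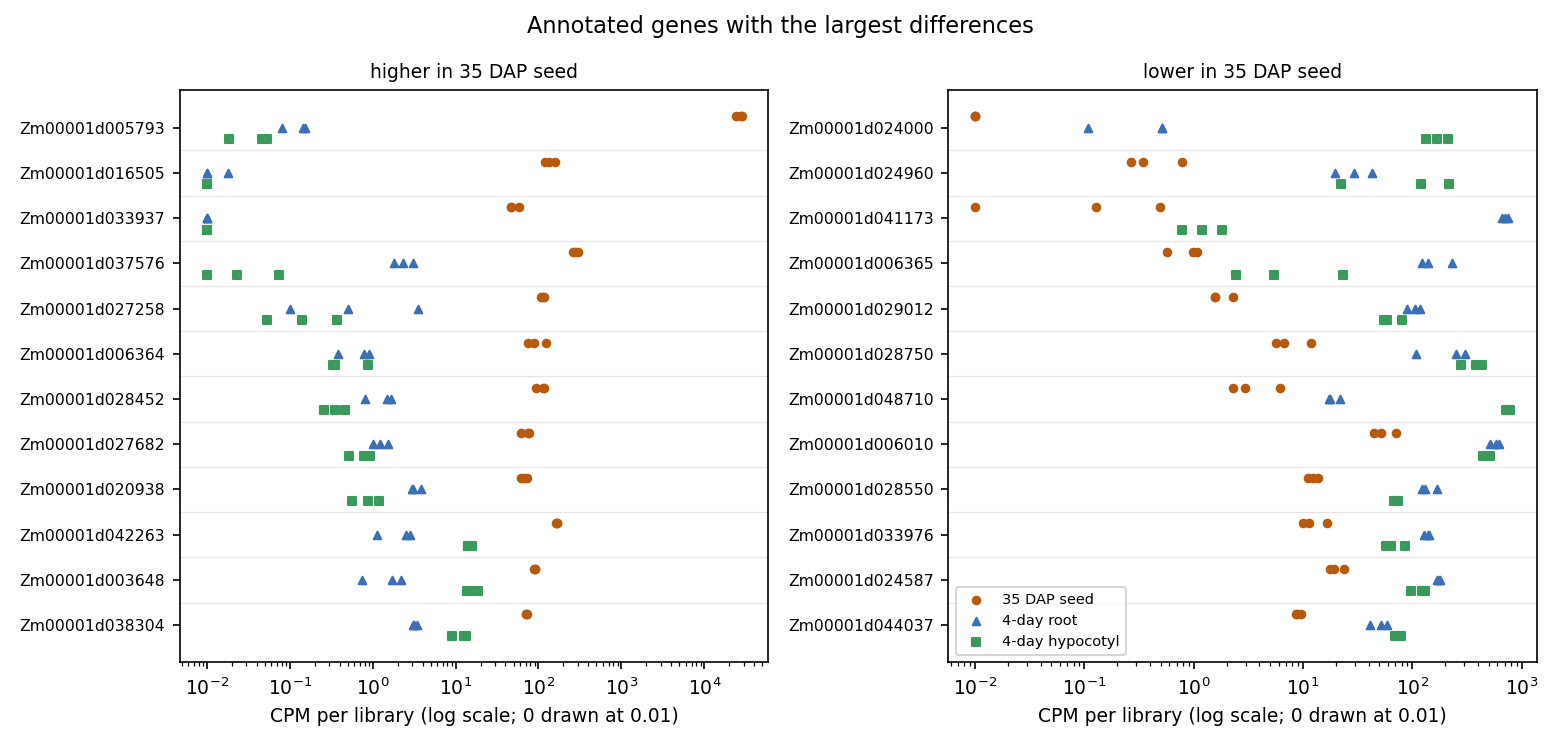
CPM of each library (x axis, log scale, with 0 drawn at the left edge) for the 12 annotated genes with the largest positive (left) and negative (right) log2 fold change, in 35 DAP seed, 4-day root and 4-day hypocotyl. All 3 seed points lie outside the range of the 6 seedling points in each gene, as the choice of genes required.

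The genes lower in the seed included several that were abundant in 1 seedling organ. Zm00001d041173, annotated as a hydrolase of O-glycosyl bonds, had 0.49, 0.129 and 0 CPM in the seed. It had 755, 701 and 661 CPM in the root but 1.8, 1.19 and 0.782 CPM in the hypocotyl, so its log2 fold change of −6.99 (SE 0.5, edgeR adjusted p = 5.93e-11) averaged −11.55 against the root and −2.43 against the hypocotyl. Zm00001d024000, annotated as a hydrolase, had the reverse pattern, with 0 reads in the seed, 0.109 to 0.512 CPM in the root and 170, 212 and 134 CPM in the hypocotyl, at least 1710-fold lower in the seed than in the mean of the organs. Zm00001d048710, annotated with RNA modification in the mitochondrion, had 6.2, 2.28 and 2.93 CPM in the seed. It had 17.7, 17.3 and 21.9 CPM in the root and 780, 715 and 766 CPM in the hypocotyl.

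Others were high in both organs. Zm00001d029012, annotated as a hexosyltransferase, had 1.56, 2.28 and 1.57 CPM in the seed, against 117, 89.3 and 107 CPM in the root and 59.1, 55.1 and 81 CPM in the hypocotyl (log2 −5.49, SE 0.36, edgeR adjusted p = 1.21e-12). Zm00001d006010, annotated with synthesis of glucuronoxylan, a polymer of secondary cell walls, had 44.7, 51.6 and 70.8 CPM in the seed. It had 518, 579 and 620 CPM in the root and 514, 448 and 479 CPM in the hypocotyl (log2 −3.24, SE 0.35, edgeR adjusted p = 9.4e-09). Its highest mean in the study was in the silk, at 2600 CPM. Zm00001d028750, annotated with defense, had 11.8, 6.77 and 5.64 CPM in the seed, against 108 to 303 CPM in the root and 277 to 434 CPM in the hypocotyl. Zm00001d024960, annotated to the membrane, had 0.268 to 0.785 CPM in the seed, against 19.5 to 42.5 CPM in the root and a wide 22.1 to 215 CPM in the hypocotyl.

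The last of the 12 lower genes by fold change, with smaller differences by that order, carried mixed annotations. Zm00001d028550, annotated to respiratory complex I of the mitochondrion, had 11.1, 12.4 and 13.6 CPM in the seed, against 167, 122 and 130 CPM in the root and 69.4, 73.4 and 67.6 CPM in the hypocotyl (log2 −3.0, SE 0.17, edgeR adjusted p = 9.9e-14). Zm00001d024587, annotated as a valine-tRNA ligase, which loads tRNA with valine, had 19.4, 17.6 and 23.6 CPM in the seed, against 167 to 178 CPM in the root and 97.1 to 131 CPM in the hypocotyl. Zm00001d033976, annotated with regulation of metabolism, had 9.99 to 16.6 CPM in the seed, against 128 to 142 CPM in the root and 57.9 to 86.3 CPM in the hypocotyl. Zm00001d044037, annotated with receptor kinase activity, had 8.61 to 9.5 CPM in the seed, against 41.3 to 59.2 CPM in the root and 69.6 to 79.2 CPM in the hypocotyl. The seed libraries lay below all seedling libraries, as the choice of genes required.

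The most abundant gene of both seedling organs, Zm00001d023994, has no annotation here and was called lower in the seed. It had 0.803, 0.776 and 0.643 CPM in the 35 DAP seed, against 4929, 4538 and 3174 CPM in the root and 6205, 5475 and 5552 CPM in the hypocotyl. The log2 fold change was −12.67 (SE 0.95, edgeR adjusted p = 1.58e-11). The 12 DAP seed had a mean of 233 CPM, well above the later seed. Zm00001d047253, second in both organs and annotated as a phosphoglycerate dehydrogenase, the first enzyme of serine synthesis, had 662, 825 and 809 CPM in the seed. It had 4178, 2734 and 4068 CPM in the root and 3999, 3483 and 4004 CPM in the hypocotyl (log2 −2.29, SE 0.24, edgeR adjusted p = 4.82e-09). Zm00001d031909, unannotated, had 105, 84.8 and 92.3 CPM in the seed, against 3020, 2374 and 2060 CPM in the root and 805, 800 and 763 CPM in the hypocotyl.

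Functional groups were read from the same annotation, as counts beside the 5.71% higher and 12.3% lower of all annotated genes tested and their median log2 fold change of −0.12. Groups of protein turnover and gene regulation, like all annotated genes, had more lower than higher members. Among 104 tested genes annotated with proteolysis, the cleavage of proteins, 8 (7.69%) were higher and 19 (18.3%) lower in the seed, with a median of −0.04. Zm00001d006713, annotated as an aspartic endopeptidase, averaged 19.77 CPM in the seed, against 0.04776 CPM in the root and 0.2424 CPM in the hypocotyl (log2 7.38). Zm00001d018415, annotated as a cysteine endopeptidase, averaged 10.6 CPM in the seed, against 53.97 CPM in the root and 72.88 CPM in the hypocotyl (log2 −2.57). Endopeptidases were thus called in both directions.

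Among 159 transcription factor genes, 6 (3.77%) were higher and 22 (13.8%) lower, with a median of −0.17. Zm00001d028873 averaged 30.62 CPM in the seed, against 0.01503 CPM in the root and 0.1994 CPM in the hypocotyl (log2 8.91, SE 0.62, edgeR adjusted p = 1.08e-11). Zm00001d027855 had no read in the seed, against 17.2, 21 and 17.9 CPM in the root and 0.14 to 0.323 CPM in the hypocotyl. The most abundant factor, Zm00001d038923, averaged 264 CPM in the seed and 338 CPM in the hypocotyl and was not called (log2 −0.17). Auxin response, the growth hormone group, had 4 higher and 10 lower of 53, with a median of −0.17.

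Membrane transport had 6 higher and 9 lower of 88 genes, with a median of −0.02, and held another pair of consecutive identifiers with opposite calls. Zm00001d039495, annotated as a sugar transporter of the plasma membrane, averaged 69.78 CPM in the seed, against 5.603 CPM in the root and 10.24 CPM in the hypocotyl (log2 3.2, SE 0.34, edgeR adjusted p = 9.26e-09). Zm00001d039496, annotated to the mitochondrial inner membrane, averaged 0.4728 CPM in the seed, against 48.57 CPM in the root and 26.06 CPM in the hypocotyl (log2 −6.23, SE 0.32, edgeR adjusted p = 8.02e-15). Carbohydrate metabolism had 6 higher and 8 lower of 65, with a median of −0.14. Of 7 genes annotated with starch metabolism (median 0.39) and 7 with lipid storage (median 0.39), 0 were called in edgeR or DESeq2. At an unadjusted p below 0.05 with no minimum fold, 4 starch genes were higher and 1 lower, and 4 lipid storage genes were higher and 3 lower. Zm00001d028560, the most abundant of the starch group, had 119, 119 and 111 CPM in the seed, against 28.7 to 35.3 CPM in the root and 51.3 to 61.5 CPM in the hypocotyl, a log2 of 1.44 that did not exceed the fold threshold.

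Among 8 genes annotated with nutrient reservoir activity, the term used for storage proteins, 1 was higher and 1 was lower. The higher gene, Zm00001d049361, averaged 183.6 CPM in the seed, against 44.31 CPM in the root and 46.46 CPM in the hypocotyl (log2 2.02, SE 0.1, edgeR adjusted p = 3.04e-15), and it also carries terms for the removal of ubiquitin from proteins. Its call rests on the fold threshold and was lost in 6 of 16 alternatives (log2 1.98 to 2.16 over all of them), among them those without seed replicate 3, without root replicate 2 or 3 and without hypocotyl replicate 2 or 3. The lower gene, Zm00001d027589, had 0.49, 1.03 and 0.785 CPM in the seed, against 10.3 to 12.4 CPM in the root and 21.5 to 24.5 CPM in the hypocotyl (log2 −4.4). The annotation covers 1 of the 50 most abundant seed genes, so the group does not describe most of the seed's reads.

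Among groups named for seed processes, germination had no higher member, and the other groups had shares of higher genes near that of all annotated genes. Of 21 genes annotated with seed germination, 0 were higher and 2 were lower in the edgeR test and also in DESeq2, with a median of −0.72, while 6 were higher and 12 lower at an unadjusted p below 0.05 with no minimum fold. Of 51 genes annotated with embryo development ending in seed dormancy, 3 (5.88%) were higher and 7 (13.7%) lower, with a median of −0.67. Their summed level ran from 1611 to 1729 CPM in the seed libraries, against 3845 to 5370 CPM in the root and 4430 to 4977 CPM in the hypocotyl, of which Zm00001d047253, described above, gave 766 CPM in the seed and 3829 CPM in the hypocotyl. Abscisic acid response, the hormone group of seed maturation, had 3 (7.89%) higher and 5 (13.2%) lower of 38, with a median of −0.12. Its most abundant member, Zm00001d048702, had 180, 111 and 121 CPM in the seed and 133, 117 and 126 CPM in the root, against 1806, 1777 and 1608 CPM in the hypocotyl. Seed and root thus overlapped for that gene, and it was called against the hypocotyl only (log2 −3.66).

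Stress and folding groups, like all annotated genes, mostly had more lower than higher members, with water deprivation as the exception. Heat response had 0 higher and 4 lower of 15 in edgeR and in DESeq2, with 6 higher and 6 lower at an unadjusted p below 0.05. Protein folding had 2 higher and 8 lower of 36. Zm00001d042636, which carries both terms, averaged 1.446 CPM in the seed, against 23.04 CPM in the root and 35.52 CPM in the hypocotyl (log2 −4.27, SE 0.31, edgeR adjusted p = 1.08e-11). Salt response had 1 higher and 7 lower of 59, and water deprivation 2 and 1 of 25. Oxidative stress had 0 higher and 4 lower of 46 in edgeR and in DESeq2, with 14 in each direction at an unadjusted p below 0.05. DNA replication had 1 higher and 4 lower of 13, with a median of −0.01. Zm00001d034217, annotated as a subunit of the clamp loader of DNA replication, had 1.83, 1.68 and 2.36 CPM in the seed, against 31.4 to 33.6 CPM in the root and 32.6 to 58 CPM in the hypocotyl (log2 −4.25, SE 0.38, edgeR adjusted p = 4.88e-10). Translation had 3 higher (6.0%) and 4 lower (8.0%) of 50, with a median of −0.09. Photosynthesis had 2 higher (10.5%) and 1 lower (5.26%) of 19, with a median of 0.04. Cellulose synthesis and movement along microtubules each had 0 higher and 2 lower of 16 in edgeR and in DESeq2. At an unadjusted p below 0.05, 8 cellulose genes were higher and 4 lower, against 2 higher and 11 lower of the microtubule group.

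Of the few genes that the study names by identifier, Zm00001d045721, a member of the trichome birefringence-like family of cell wall proteins, was called lower. It had 0.803, 0.604 and 0.857 CPM in the seed, against 3.88, 6.52 and 8.98 CPM in the root and 16.1, 11.8 and 14.6 CPM in the hypocotyl (log2 −3.67, SE 0.45, edgeR adjusted p = 1.01e-07). Zm00001d008209, a cyclophilin, had 1 read in the 3 seed libraries, against 0.127 to 0.566 CPM in the root and 9.79 to 13.7 CPM in the hypocotyl. Zm00001d023262, called brick3, had 94.7 to 106 CPM in the seed, against 121 to 131 CPM in the root and 133 to 142 CPM in the hypocotyl, a log2 of −0.41 within the fold threshold. Zm00001d015293 was likewise not called, at a log2 of 0.58, with 56 to 60.2 CPM in the seed, against 42.4 to 48.5 CPM in the root and 33.1 to 35.7 CPM in the hypocotyl.

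Transcripts of the mitochondrial genome were higher in the late seed, unevenly among its libraries. The symbols of 33 organelle genes tested are known from RefSeq. Of 24 mitochondrial genes, among them genes of the respiratory chain, of cytochrome c maturation and open reading frames, 16 (66.7%) were called higher in edgeR (15 in DESeq2) and 0 lower in either tool, with log2 fold changes of 2.09 to 3.99 and seed means of 0.41 to 11 CPM. Of 9 plastid genes, 1 was called higher. The shares over all genes tested were 8.67% higher and 15.4% lower. Mitochondrial transcripts made up 74.2, 20.6 and 72.1 of each M reads in the seed libraries, against at most 28.5 in the root and 24.8, 7.28 and 21.5 in the hypocotyl. In these unscaled reads the second seed library lay within the seedling range. In all 16 genes the second seed library was the lowest of the seed libraries.

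The gene cox1, for a subunit of cytochrome oxidase, had 16, 3.02 and 14 CPM in the seed, against 0.653, 1.83 and 2.61 CPM in the root and 2.69, 0.28 and 2.64 CPM in the hypocotyl. Its log2 fold change was 2.63 (SE 0.6, edgeR adjusted p = 0.000411). For cox3, another subunit, the values were 8.25, 1.64 and 7.14 CPM in the seed, against 0.363 to 1.18 CPM in the root and 0.261 to 0.981 CPM in the hypocotyl (log2 3.11, SE 0.61, edgeR adjusted p = 7.62e-05). For nad4, of complex I, they were 10.7, 2.59 and 8.28 CPM in the seed, against 0.327, 1.48 and 2.71 CPM in the root and 2.29, 0.28 and 1.86 CPM in the hypocotyl. On these TMM-scaled levels, the second seed library fell within the seedling range for nad4 and above it for cox1 and cox3. The TMM factor was 0.877 for that library and 1.285 to 1.353 for the seedling libraries. Without that scaling, the second seed library lay within the seedling range for cox1 and cox3 too. For cox1 it had 70 of 26471052 gene reads, against 115 of 32681706 in the first hypocotyl library. On the scaled levels, every seed library was above every seedling library in 11 of the 16 genes. Replicates 1 and 3 of the seed were above in all 16. The order of all libraries held in 92.9% of all genes called higher and in 24.2% of all genes tested, and the call itself favours it.

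**Figure D5:**
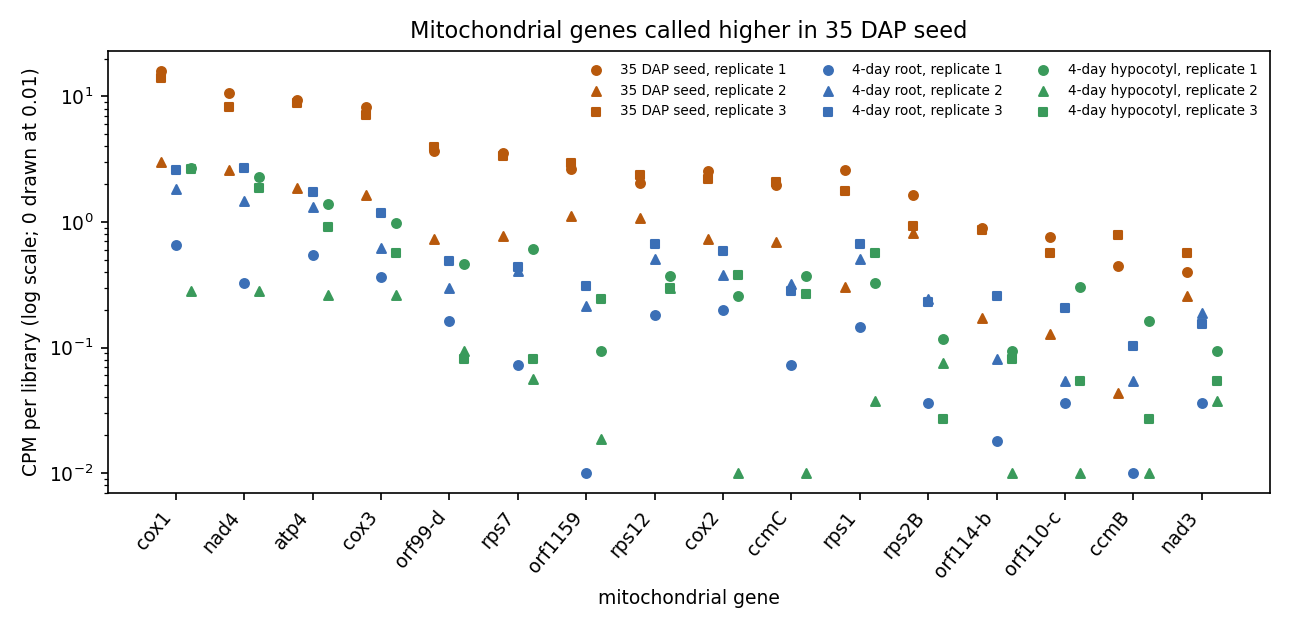
CPM of each library (y axis, log scale, with 0 drawn at the lower edge) for the 16 mitochondrial genes called higher in 35 DAP seed (x axis, by mean seed level), with the replicates of 35 DAP seed, 4-day root and 4-day hypocotyl marked by symbol. The second seed replicate is the lowest seed point in all 16 genes.

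Among noncoding features too, the second seed library was mostly the lowest. Of 235 tested features with identifiers that mark noncoding RNA, 56 (23.8%) were higher and 14 (5.96%) were lower in the seed. Over all genes tested, 8.67% were higher and 15.4% lower. In 50 of the 56 the second seed library was the lowest of the seed libraries. These features took 881, 192 and 1120 of each M reads in the seed libraries, against 307 to 381 in the root and 245 to 262 in the hypocotyl. The libraries were made by selection of polyadenylated RNA, and the part of this selection in the differences was not tested. Of the 17 organelle genes called higher, 17 remained called without seed replicate 2, 13 without replicate 1 and 12 without replicate 3.

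Genes excluded by the sign rule included some with calls against both organs in opposite directions. Between them, 242 genes were above the root and below the hypocotyl, and 74 were below the root and above the hypocotyl. Such calls imply that root and hypocotyl differ for these genes. Zm00001d027904, annotated with protein kinase activity and circadian rhythm, had 45.5, 45.3 and 57.1 CPM in the seed, against 0.181, 0.243 and 0.307 CPM in the root and 350, 283 and 331 CPM in the hypocotyl. Zm00001d043049, annotated with assembly of the small ribosomal subunit, had 38.2, 48.5 and 57.9 CPM in the seed, against 0.0363 to 0.62 CPM in the root and 569 to 635 CPM in the hypocotyl. For these genes the seed lay between the seedling organs with no overlap. In the opposite order, Zm00001d053982, annotated with RNA processing, had 4.64, 5.69 and 6.28 CPM in the seed, against 29.9, 71.4 and 81.3 CPM in the root and 0.35, 0.523 and 1.43 CPM in the hypocotyl.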

How the data were processed

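RNA was measured in 33 libraries of 11 B73 tissues, 3 per tissue, of which 9 form the comparison. The deposited files hold, for each library, whole-number read counts per gene that the authors obtained with STAR on B73 RefGen_v4 (AGPv4), after trimming with Trimmomatic and removal of ribosomal reads with sortMeRNA. Neither STAR's version nor the annotation release is given by any source used here. The libraries were stranded, paired-end and selected for polyadenylated RNA, so the reverse-strand column was used. STAR does not count reads that map to several places, and its 4 summary lines were left out of library sizes. In the 9 libraries, multi-mapped reads made up 1.86% to 3.67% of all reads, and reads on no feature 3.93% to 10.7%.

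Counts were filtered with filterByExpr by tissue, which kept 28997 of 46430 features, scaled by TMM and fitted with edgeR version 4.0.16 (R version 4.3.3). The fit took all 33 libraries with a term per tissue, and the quasi-likelihood test compared the 35 DAP seed with the mean of root and hypocotyl. Calls required an adjusted p under 0.05 (Benjamini–Hochberg over all genes tested), a log2 fold change beyond 2 and the same sign against each organ. The study's methods state no test between these tissues. Replicates are separate ears or separate pools of plants, and their counts differed by more than sampling noise (chi-square per degree of freedom 11.34 to 41.23), so none was taken for a copy of another. Replicate numbers carry no stated link between tissues.

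The members and gene lists were chosen with earlier results of these data known. Named genes were the 12 in each direction with the largest log2 fold change among annotated genes called also against each organ alone, with at least 50 CPM on the higher side and no overlap of libraries, together with the 5 most abundant genes per tissue and leading members of each functional group. Names came from the study's annotation of genes near enhancers, a table held here only in part, and from RefSeq (assembly Zm-B73-REFERENCE-NAM-5.0) for organelle genes. No nuclear identifier matched RefSeq, so lists by gene symbol, markers and promoters were not used here. A gene with no reads on 1 side was given a bound from 3 reads over that group. On simulated counts for 28083 genes of this comparison, changes of log2 3, −3, 5 and −5 were recovered in 98%, 94%, 100% and 96% of 50 genes each, with 1 false call. The simulation gave all other genes the same mean in every tissue and changed only genes above 1 CPM. It therefore does not cover the concentration of reads in the seed. Nor does it cover the 569 higher and 785 lower calls under 1 CPM on their higher side. Alternatives were DESeq2 version 1.42.0, other scalings, no filter, unstranded counts, only the 9 libraries, a replicate block, no minimum fold and each library left out in turn.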

Additional observations from a re-analysis of the deposited data

Results flagged for a closer look

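Of the gene reads in the 35 DAP seed libraries, 3.35% to 4.33% fell on the strand opposite to the annotated gene, against 0.9% to 1.1% in the seedling libraries and 0.9% to 1.44% over the other 10 tissues. These reads come from the strand column that the comparison did not use, but a read on overlapping features can enter both columns. A single feature, Zm00001d019156, took most of them, and without it the share was 0.63% to 0.71% in the seed libraries. Counted without regard to strand, it had 484855, 415058 and 202591 reads there. On the opposite strand it had 1048573, 884076 and 435190 reads. Its neighbour Zm00001d019155 had 916873, 782753 and 406348 reads on its own strand, and 353719, 314322 and 174067 without regard to strand. Ignoring strand thus took a similar number of reads from both features in each seed library. The number of reads counted for both features was not computed.

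Genes for which the seed differed in opposite directions from the seedling organs were singled out because the effect against 1 organ was the reverse of that against the other. The selection itself sets the organs apart for these genes, so their difference is no separate evidence. A total of 242 were above the root and below the hypocotyl, and 74 were below the root and above the hypocotyl.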

How the results depend on the processing

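With no minimum fold the calls came to 7950 higher and 9945 lower, instead of 2513 and 4464. Under DESeq2, RLE scaling, scaling without the 50 most abundant seed genes, no filter, unstranded counts and only the 9 libraries, between 2305 and 3195 genes were higher and between 4056 and 4607 lower. Leaving out each library in turn gave 2522 to 2623 higher and 4280 to 4559 lower, 2976 to 3091 and 4662 to 4905 against the root, and 2632 to 2762 and 4788 to 5099 against the hypocotyl. A fit with the replicate number as a block gave 2521 and 4441. Deviations of same-numbered libraries correlated at −0.052 to 0.224, and those of differently numbered libraries at −0.293 to 0.206. With 3 libraries per tissue this check cannot exclude a pairing by number, and the main fit used none. The median of all genes moved by at most 0.13 (log2), with only the 9 libraries. No called value of a gene chosen by rule changed direction, and 6 values of 4 uncalled genes did. Among 1632 values of called and uncalled genes together, 24 lost their call, 20 of them of organelle genes, and 7 gained a call. Medians of functional groups changed sign in 39 of 416 values, from 11 groups with a median near 0, and counts of their called members moved by over 1.5 times in 29 of 832, by at most 2 genes. Zm00001d002738, the germination gene with the largest difference, was not called with unstranded counts (log2 −3.41) or without seed replicate 1 (log2 −3.74). Nor was it called against the hypocotyl alone (log2 −0.33), since it averaged 0.0956 CPM in the seed and 0.126 CPM in the hypocotyl, against 35.5 CPM in the root. With only the 9 libraries, 13 of the 17 organelle genes were tested, and all 13 were called. Motif shares in promoters and lists by symbol were not run, since the tables used here give no promoters or names for these identifiers. Seed replicate 3, with 15.8 M reads, limits what can be called absent from the seed.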

Other observations

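Functional groups picked after their values were seen showed both directions. Because of that choice, their counts test nothing. Among all annotated genes tested, 5.71% were higher and 12.3% lower, with a median log2 fold change of −0.12. Of 27 genes annotated with the response to chitin, a fungal wall polymer, 5 were higher and 1 was lower in the 35 DAP seed, with a median log2 fold change of 0.24, and their summed level was 1086 CPM in the seed, against 701.9 CPM in the root and 787.5 CPM in the hypocotyl. Of 19 genes annotated with cohesion of sister chromatids, 3 were higher and 0 lower in edgeR and in DESeq2, with a median of 0.72, while 11 were higher and 5 lower at an unadjusted p below 0.05. Of 12 genes annotated with growth of cells along 1 axis, 3 were higher and 5 lower, with a median of −1.2. Transport of potassium across membranes had 0 higher and 4 lower of 11 in both tools, with a median of −1.17, and 1 higher and 6 lower at an unadjusted p below 0.05. Its summed level was 137.0 CPM in the seed, against 250.5 CPM in the root and 366.6 CPM in the hypocotyl. The group leaves out Zm00001d042263, described above, which is annotated as a potassium channel and was called higher in the seed. That gene alone averaged 165 CPM in the seed, against 2.15 CPM in the root and 14.7 CPM in the hypocotyl. Organization of microtubules had 1 higher and 4 lower of 10.

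Among genes between the seedling organs, Zm00001d027599, annotated as a peptidyl-prolyl isomerase of the chloroplast thylakoid, had 6.73, 6.42 and 8.71 CPM in the seed, against 0.593 to 0.617 CPM in the root and 31.5 to 39.7 CPM in the hypocotyl. Zm00001d025958, annotated as a UDP-glucose 4-epimerase, an enzyme that interconverts sugar nucleotides, had 4.5, 5.09 and 5.57 CPM in the seed, against 0.135 to 0.272 CPM in the root and 30.4 to 35.3 CPM in the hypocotyl. Zm00001d033522, annotated with responses to water deprivation and chitin, had 5.22, 6.38 and 8.92 CPM in the seed, against 0.0256 to 0.0726 CPM in the root and 76.4 to 95 CPM in the hypocotyl.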
